A study of Mus musculus with 4 samples.

Results

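The 31 genes for the constitutive subunits of the proteasome were examined for CTCF binding in cultured neurons, out of 21774 protein-coding genes placed on assembled chromosomes. They were taken as a fixed list of gene symbols with their RefSeq bounds (GRCm38.p6) and divided by position in the particle into 7 core alpha, 7 core beta, 9 base and 8 lid genes. CTCF was mapped by chromatin immunoprecipitation and sequencing in untreated, wild-type cortical neurons of Swiss-Webster mice, taken at embryonic day 16 and kept for 13 days in culture. There are 2 immunoprecipitations, numbered as replicates, with 2 matching inputs. They were joined by the authors into 1 list of 33820 peaks reproducible at an irreproducible discovery rate (IDR) of 0.05. A list of peaks holds no marker levels, so the labelled cell type could not be checked. Read depth is unknown from the list. The design has 1 condition and thus no contrast of samples and no test. The main counts over the members stand beside the same counts over all protein-coding genes.

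The proteasome is the protease complex that degrades proteins tagged with ubiquitin. Its core particle is a barrel of stacked rings, in which alpha subunits form the outer rings and the gate and beta subunits form the inner rings with the catalytic sites. A regulatory particle caps the barrel. Its base holds a ring of ATPases that unfold substrates and its lid removes the ubiquitin chain. The subunits are made in fixed proportions, and their genes are transcribed in nearly all cells, in part under the transcription factor NFE2L1. In neurons the proteasome also takes part in synaptic protein turnover. CTCF reads a long DNA motif with its zinc fingers and, together with cohesin, anchors chromatin loops.

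A peak summit lay within 1 kb of either end of 11 of the 31 genes (35.5%, with a 95% interval of 19.2 to 54.6 by the exact Clopper-Pearson method), beside 29.2% of all protein-coding genes, a share near the background. The genes were Psma1, Psma3 and Psma7 of the core alpha group, Psmc4, Psmc5, Psmc6 and Psmd1 of the base, and Psmd3, Psmd6, Psmd8 and Psmd11 of the lid. By group these were 3 of 7 alpha, 0 of 7 beta, 4 of 9 base and 4 of 8 lid genes. The core particle together had 3 of 14 (21.4%) and the regulatory particle 8 of 17 (47.1%), with exact intervals of 4.66 to 50.8 and 23.0 to 72.2 that overlap widely. A count of 0 among 7 beta genes has an exact interval that reaches up to 41.0%. These intervals cover counting error only, and neighbouring groups cannot be ranked at this size. With 10 kb allowed on either side, 25 of 31 genes (80.6%, interval 62.5 to 92.5) had a peak, against 66.6% of all protein-coding genes.

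**Figure D1:**
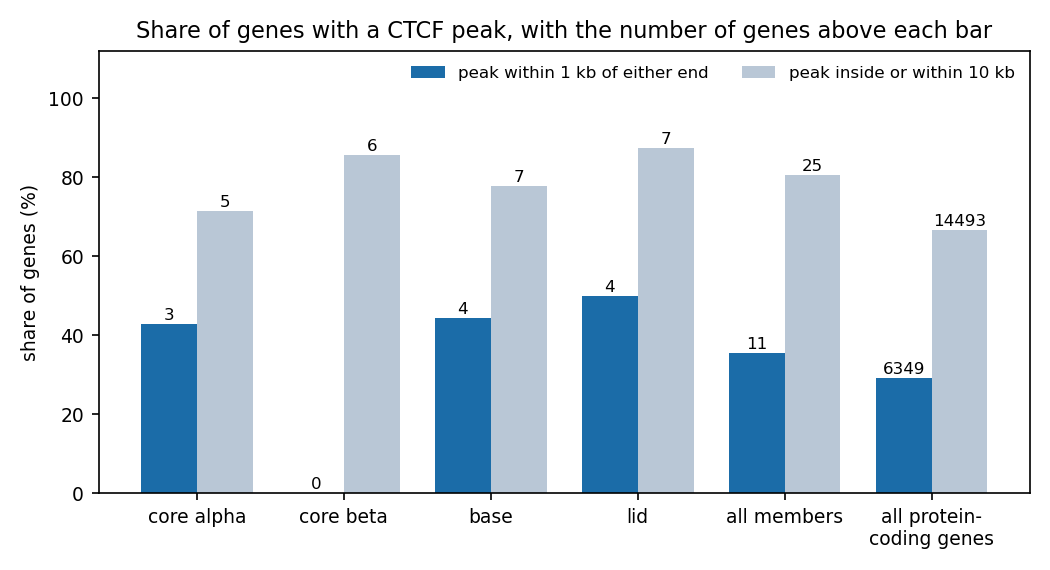
Share of genes (%) in each subunit group, over all 31 members and over all protein-coding genes, with a CTCF summit within 1 kb of either end (dark bars) or inside the gene or up to 10 kb outside it (light bars). The number above each bar counts genes; no core beta gene had an end peak, while 6 of 7 had a peak within 10 kb.

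The strongest end peaks among the 31 genes belonged to 3 genes of the regulatory particle. Strength here is the authors' value for a joint peak, the sum of the −log10 p in the first and second replicate columns of the list, and the list median is 165.5. Psmd6, a lid subunit that helps hold the lid together, had a peak of 1824 (chr14:14120201-14121867, mm10), with 1000.1 in the first column and 824 in the second. It ranked number 31 of the 6096 peaks at ends of protein-coding genes. Its value was higher in the first column, as at 2 of the 12 member end peaks (16.7%) and at 28.9% of those 6096. Psmc6, a base ATPase, had a peak of 1030.3 (chr14:45328813-45330274), with 301 and 729 in the columns. Psmc4, another base ATPase, had a peak of 906 (chr7:28049979-28051019), with 319 and 588. The summits lay 90, 192 and 202 bp upstream of the respective gene starts, and none of these starts had the end of another gene within 1 kb.

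The other base genes with an end peak were intermediate. At Psmd1, the large scaffold subunit of the base, the peak had a strength of 370 (chr1:86063593-86065403), with 77.3 and 293 in the columns, and its summit lay 305 bp upstream of the start. A second peak of 230 stood 4963 bp upstream. At Psmc5, an ATPase, the peak had 285 (chr11:106255982-106256927), with 131 and 155, and its summit lay 171 bp downstream of the start, the only one of the base end peaks on that side. That start lies 101 bp from the upper end of Ftsj3, a gene on the opposite strand, so the peak cannot be assigned to one of the pair. All 4 base end peaks stood above the list median, beside 49.2% of the end peaks of all protein-coding genes, and 4 peaks are too few to describe the group.

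The lid end peaks spread more widely. Psmd11, a lid subunit that also touches the core particle, had a peak of 362 (chr11:80427844-80429472) with nearly even values in the columns, 174 and 188, and a summit 129 bp upstream of the start. Psmd8 had a peak of 162 (chr7:29180066-29181470), with 27.5 and 135, and a summit 90 bp upstream. An end of Catsperg1, a gene named for a sperm ion channel, is 859 bp from that start. Psmd3 had the weakest of the group, 70.2 (chr11:98681878-98682980), with 13.6 and 56.6, at 58 bp outside its lower-coordinate end. Across the 4 lid peaks the strength therefore ran from 70.2 to 1824, the widest range of any group.

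The core alpha end peaks were weaker than the leading ones of the base and lid. Psma3 had 2, on either side of its RefSeq bound: one 638 bp upstream (chr12:70968193-70969143) with 408.5 (159 and 249 in the columns) and one 683 bp downstream (chr12:70969221-70970350) with 280.4 (22.2 and 258). Between them lies the tRNA gene n-TKctt17, whose end is 91 bp from the bound of Psma3. The RefSeq promoter table places the start of Psma3 another 5340 bp downstream, and of its peaks only a weaker one of 67.7 (26.5 and 41.3) lay within 1 kb of that start, 951 bp downstream of it. Psma1 had a peak of 96.4 (chr7:114275891-114277306; 18.4 and 78.1), 558 bp upstream of the start. Psma7 had the weakest of the 12, 48.6 (chr2:180041638-180043564; 27.5 and 21.1), 470 bp upstream. The start of Ss18l1, a gene of a chromatin remodelling complex, lies 19 bp from that of Psma7 on the opposite strand. Stronger peaks of 138 and 475 stood 3074 and 8673 bp upstream of Psma7, beyond the shared start.

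**Figure D2:**
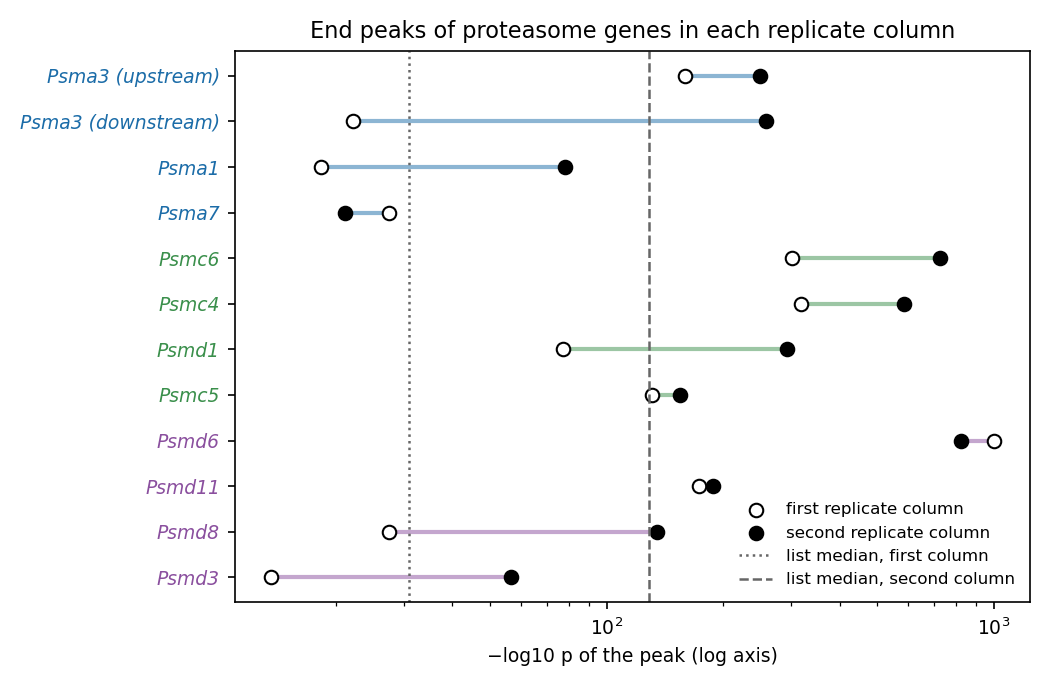
The −log10 p (log axis) of the 12 peaks within 1 kb of an end of a proteasome gene, in the first replicate column (open points) and the second (filled points), coloured by subunit group as alpha (blue), base (green) and lid (purple). The dotted and dashed lines mark the medians of the whole list, 30.87 and 128.9; Psmd6, Psmc6 and Psmc4 lie far above both, while Psma1, Psma7 and Psmd3 lie below both.

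None of the 7 beta genes had a peak at an end. Psmb3, next to the 1 kb limit, had one of 77.1 (18.4 and 58.7) at 1056 bp beyond its finish, and one of 362 (177 and 185) at 4448 bp upstream of its start. The peak of 77.1 also lay within 1 kb of an end of Pip4k2b. Psmb4 had 1 weak peak of 46.2 (9.91 and 36.3) at 1844 bp upstream. Among the genes of the catalytic subunits, Psmb5 had 1 peak of 148, 3963 bp beyond its finish, and Psmb6 had 1 of 302, 8757 bp upstream. Psmb7, the remaining one, was the member with the most peaks, 5 within 10 kb. Of these, 4 lay inside the gene, with strengths of 177, 175, 401 and 231, and the last, of 203, lay 2169 bp outside. The peak of 401 also lay within 1 kb of an end of Gm13586. Psmb1 had 2 peaks, of 323 and 94.1, both outside its lower-coordinate end at 7820 and 2869 bp. For Psmb2 the nearest summit was 28.0 kb away.

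**Figure D3:**
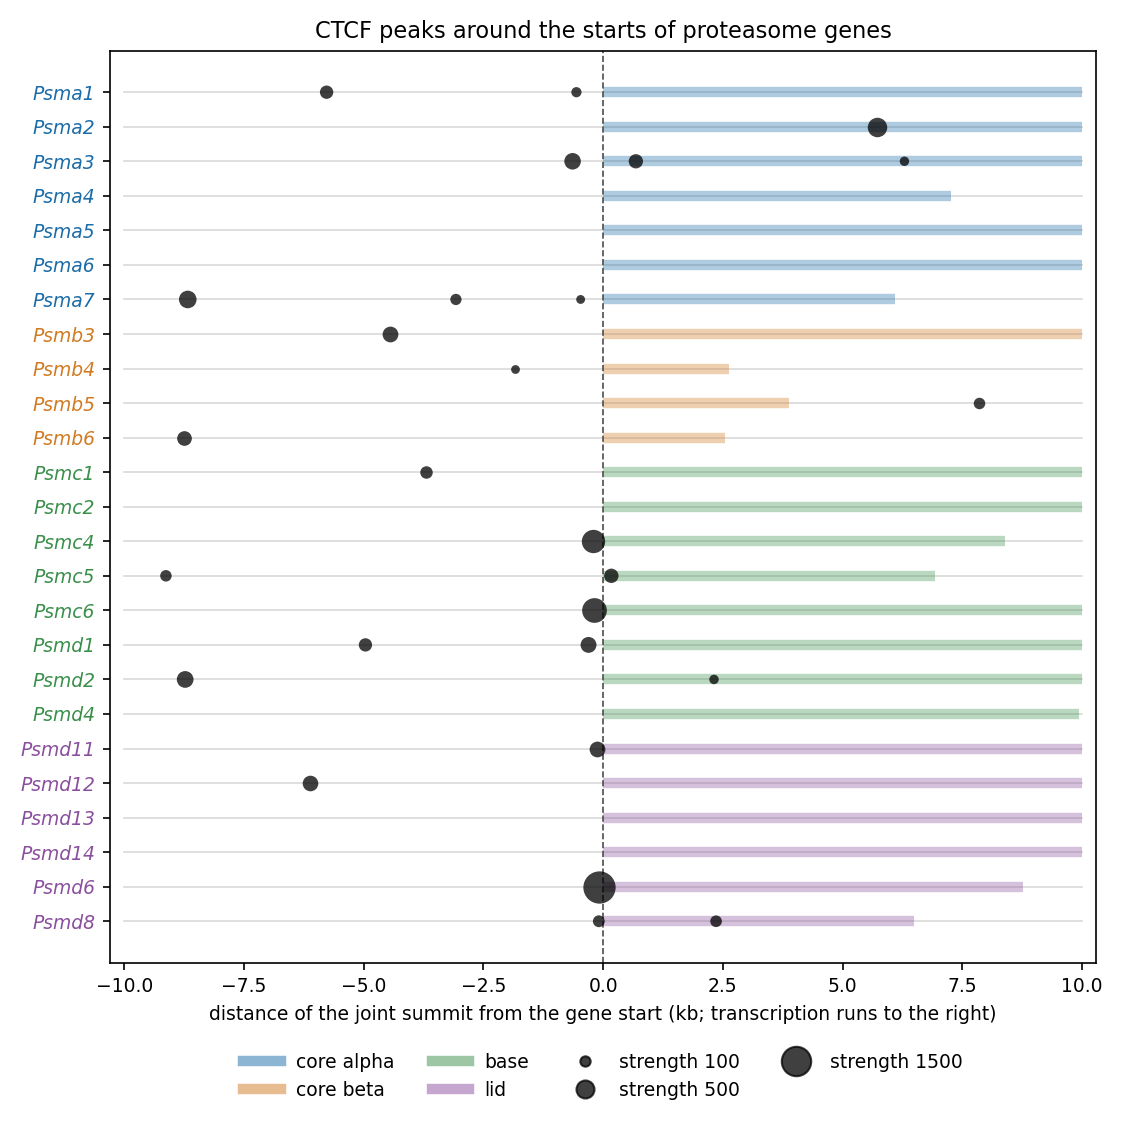
Joint summits (points, area rising with joint strength) within 10 kb of the start of the 25 proteasome genes with a known strand, with each gene body drawn to the right of the dashed line up to 10 kb and coloured by subunit group. The large points at the starts of Psmd6, Psmc6 and Psmc4 have strengths of 1824, 1030.3 and 906, and the rows of Psma4, Psma5, Psma6, Psmc2, Psmd4, Psmd13 and Psmd14 hold no point.

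The promoter windows that hold a summit are shown, which are those of 5 of the 10 members with a start peak. That is 50.0%, against 30.0% of all protein-coding genes with a start peak, and 5 genes give such shares little precision. Of the 25 members in the RefSeq promoter table (GRCm38.p6), 5 had a summit in the 300 bases that run from 250 before to 50 after the start (20.0%), against 7.96% of 17492 protein-coding genes. The 250 bases before the start are printed from 5′ to 3′ on the gene's strand. For Psmc4 the capitals mark a match to the core of the CTCF motif on the other strand, 241 to 230 bases before the start, centred 33.5 bp from the summit. For Psmd11 they mark a match to a looser form of that core with 1 letter fewer fixed, 147 to 136 bases before the start and centred 12.5 bp from the summit. For Psmd6, Psmc6 and Psmd8, whose windows hold neither form, they mark the 21 bases centred on the summit.
Psmc4 (chr7:28050093-28050342, minus strand): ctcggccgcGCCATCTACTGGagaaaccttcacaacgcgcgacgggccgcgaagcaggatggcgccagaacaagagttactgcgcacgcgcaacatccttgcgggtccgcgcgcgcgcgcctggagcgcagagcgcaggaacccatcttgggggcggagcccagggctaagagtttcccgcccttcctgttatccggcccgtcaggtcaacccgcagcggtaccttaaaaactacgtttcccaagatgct
Psmd11 (chr11:80428365-80428614, plus strand): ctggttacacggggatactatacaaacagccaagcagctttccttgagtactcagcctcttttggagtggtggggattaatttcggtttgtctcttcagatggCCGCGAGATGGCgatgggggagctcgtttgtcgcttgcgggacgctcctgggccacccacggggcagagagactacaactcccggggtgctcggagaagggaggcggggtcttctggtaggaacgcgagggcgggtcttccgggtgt
Psmd6 (chr14:14120946-14121195, minus strand): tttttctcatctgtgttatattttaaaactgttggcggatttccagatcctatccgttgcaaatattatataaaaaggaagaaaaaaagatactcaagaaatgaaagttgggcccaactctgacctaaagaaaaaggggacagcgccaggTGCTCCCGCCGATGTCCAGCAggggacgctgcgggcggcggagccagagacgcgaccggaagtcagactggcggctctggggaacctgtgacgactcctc
Psmc6 (chr14:45329574-45329823, plus strand): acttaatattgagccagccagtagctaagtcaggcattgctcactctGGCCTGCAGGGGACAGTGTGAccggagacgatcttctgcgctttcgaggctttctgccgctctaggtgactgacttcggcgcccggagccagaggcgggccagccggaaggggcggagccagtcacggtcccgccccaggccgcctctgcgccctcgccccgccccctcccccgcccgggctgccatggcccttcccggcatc
Psmd8 (chr7:29180674-29180923, minus strand): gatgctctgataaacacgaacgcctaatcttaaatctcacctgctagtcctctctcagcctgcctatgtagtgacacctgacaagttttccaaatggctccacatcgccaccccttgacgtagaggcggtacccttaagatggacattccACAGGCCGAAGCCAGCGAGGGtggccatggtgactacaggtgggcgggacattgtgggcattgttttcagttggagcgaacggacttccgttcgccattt

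Each motif was searched on both strands in all 32851 windows of the promoter table, and a match is a description of letters, not of binding. The CTCF core motif, with its variable bases left free, occurred in 2.43% of all windows, in 12.4% of the 1996 windows with a summit and in 1.78% of those without. Among 27 windows of the members it occurred only in that of Psmc4 (3.7%). The looser form, which contains every match of the stricter one, occurred in 8.61% of all windows, in 33.9% of windows with a summit and in 6.97% of those without. It was found in 6 of the 27 member windows (22.2%), those of Psma1, Psma6, Psmc2, Psmc4, Psmd11 and Psmd14, of which only Psmc4 and Psmd11 held a summit. The strongest end peaks, those of Psmd6 and Psmc6, thus lay over windows without an exact match to either form of the core. Near each of these summits the printed bases hold a near match to the looser form. It departs only at the G before the last C, where an A stands. How often such near matches occur in other windows was not counted. No match says only that these letters are not in the window.

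The core of the antioxidant response element, TGACNNNGC, through which NFE2L1 acts on proteasome genes, occurred in 4 of the 27 windows (Psmb5, Psmb6, Psmc6 and Psmd12; 14.8%) and in 12.4% of all windows. Only Psmc6 had both this motif and a summit in the window. In base composition the members with and without a start peak had like medians. The median GC content was 57.0% in the 10 with a start peak and 56.7% in the 15 without, and the median number of CpG dinucleotides was 21.5 and 20.0. The 10 include Psma3, whose window has 49.3% GC and 10 CpG. That window belongs to a start 5340 bp from the bound at which the start peaks of Psma3 were counted. Over all protein-coding genes the corresponding medians were 62.7% and 53.7% for GC, and 23.0 and 8.0 for CpG.

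Where the strand is known, the end peaks of the members lay at the start of the gene. Of 25 members 10 had a start peak (40.0%, exact interval 21.1 to 61.3), against 24.3% of 17492 protein-coding genes, a share inside that interval. Counted from the starts of the promoter table it was also 10, against 27.2%. No member of known strand had a peak at the finish, beside 6.57% of protein-coding genes. A count of 0 of 25 has an exact interval that reaches up to 13.7%, which is above that background. Among peaks above the median joint strength 7 members kept a start peak, beside 11.5% of all genes. Held to the first column's median alone, 7 did, beside 17.6%, and held to the second column's, 8 did, beside 9.88%. The nearest summit lay upstream of the start at 9 of the 10 genes, all but Psmc5, and at 42.9% of all genes with a start peak. Measured from the starts of the promoter table it was 8 of 10, with Psma3 on the downstream side, against 48.8%. Within 250 bp of the start lay 6 of the 10 (60.0%), against 46.3%.

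Some member starts were shared with a neighbour. Another protein-coding gene ended or began within 1 kb of 8 of the 25 starts (32.0%), against 15.3% of all starts. Of these 8, the starts of Psma7, Psmc5 and Psmd8 had a peak (37.5%, against 34.4% of all shared starts). Those of Psma2, Psma4, Psmb3, Psmc2 and Psmd13 had none, among them the pairs of Psma2 with Mrpl32 at 205 bp and Psmd13 with Sirt3 at 85 bp, each on opposite strands. Of the 17 member starts that no protein-coding gene shares, 7 had a peak (41.2%), against 22.5% of all such starts.

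In strength the 12 end peaks had a median of 324, from 48.6 to 1824, beside 160.7 over all 6096 end peaks, and 8 of the 12 stood above the list median (66.7%, against 49.2%). The median was 104.0 in the first column and 219 in the second, beside 52.9 and 99.96 for all end peaks. The log2 ratio of second to first column had a median of 1.08, from −0.38 at Psma7 to 3.54 at the downstream peak of Psma3, beside 0.40 at all end peaks. The other 38 peaks within 10 kb of the members had a median strength of 184 and a median log2 ratio of 1.98, beside 1.91 over the whole list. Of these 38 peaks, 25 stood above the list median (65.8%), so that share was not particular to the end peaks. When the end window was widened to 5 kb, the median over 33 peaks fell to 177.4, beside 171.6 for all genes. Peaks at the ends of 1 gene or at a shared start are not independent, and 12 peaks give these medians little precision.

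**Figure D4:**
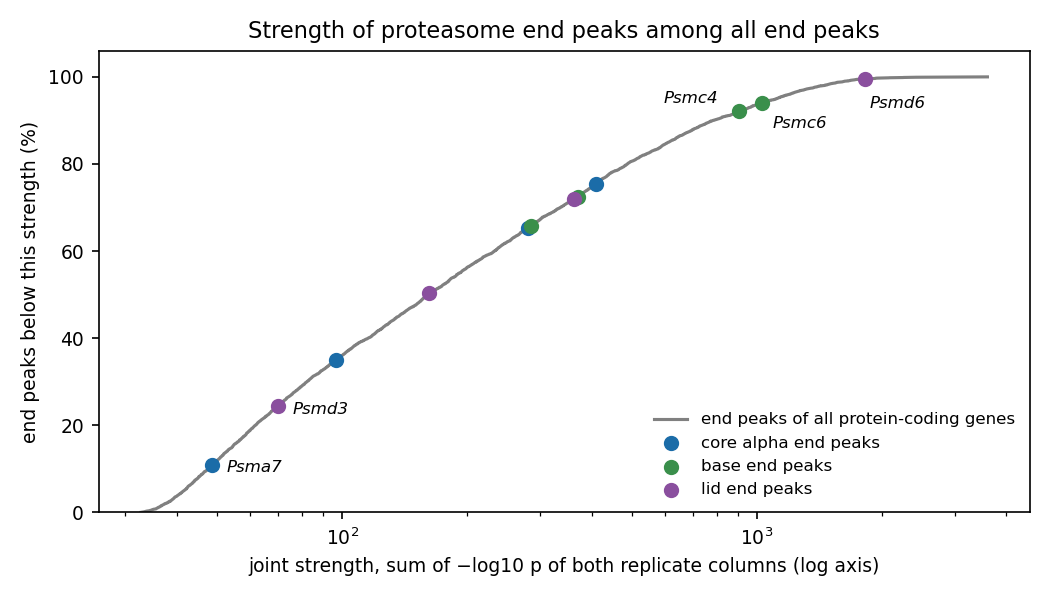
Joint strength (log axis) of the 12 end peaks of proteasome genes, placed on the cumulative share (%) of the end peaks of all protein-coding genes (grey line), coloured by subunit group. Psmd6 lies above 99.5% of end peaks, Psmc6 above 94.0% and Psmc4 above 92.1%, and Psma7 lies above 10.8%.

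Away from the ends, peaks inside the members were few and the genes are short. Inside and over 1 kb from both ends lay 8 peaks in 5 genes (16.1%, against 35.5% of all protein-coding genes): Psma2, Psma3, Psmb7, Psmd2 and Psmd8. The strongest was at Psma2, 604 (88.6 and 515), 5717 bp downstream of the start. At Psmd2, the other large scaffold of the base, it was 69.6, and at Psmd8 154. The members have a median length of 12432 bp, from 2535 to 88683 bp, beside 17219 bp for all protein-coding genes. Under 10 kb, 1 of 12 members had an inside peak, 8.33% beside 8.6% of all genes of that length. From 10 to 30 kb it was 3 of 13, 23.1% beside 33.1%, and from 30 to 100 kb 1 of 6, 16.7% beside 57.2%. For end peaks the same classes gave 41.7%, 30.8% and 33.3% of members beside 21.5%, 29.6% and 33.7% of all genes. A peak within 10 kb stood at 10 of 12 members under 10 kb (83.3% beside 48.3%), at 12 of 13 from 10 to 30 kb (92.3% beside 69.2%) and at 3 of 6 from 30 to 100 kb (50.0% beside 79.1%).

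Other peaks within 10 kb lay outside the genes. Psmc1, a base ATPase, had 3 peaks, of 191 at 3700 bp upstream and of 40.2 and 464 at 1780 and 8459 bp beyond its finish. Psmc3, also an ATPase, had 3, of 174, 46.8 and 292, at 1841, 4990 and 6251 bp outside its upper-coordinate end. Psmd2 had a peak of 420 at 8727 bp upstream beside its inside peak. Among lid genes, Psmd7 had 2, of 208 and 176, at 3445 and 7645 bp outside its lower-coordinate end. Psmd12 had 1 of 353 at 6130 bp upstream, and Psmd13 had 1 of 471 at 4818 bp beyond its finish. Psma5 had 1 of 159 at 2562 bp beyond its finish. Psmd11, beside its start peak, had one of 169 at 1079 bp beyond its finish, just outside the 1 kb limit, and one of 289 at 3542 bp beyond the finish, at an end of Cdk5r1. Psma1, Psmc5 and Psmd3 also had peaks away from their ends. That of Psma1 had 232 at 5774 bp upstream. Those of Psmc5 had 148 at 9129 bp upstream and 51.7 at 9435 bp beyond its finish. Those of Psmd3 had 175 at 9201 bp outside its lower-coordinate end and 393 at 4087 bp outside its upper-coordinate end. Further peaks named here also lay within 1 kb of an end of another gene. They were the 40.2 of Psmc1 (Nrde2), the 174 of Psmc3 (Slc39a13), the 51.7 of Psmc5 (Smarcd2 and Tcam1) and the 393 of Psmd3 (Csf3).

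The 6 members with no peak within 10 kb came from every group. They were Psma4 (nearest summit 53.5 kb away), Psma6 (29.1 kb), Psmb2 (28.0 kb), Psmd14 (14.7 kb), Psmd4 (10.9 kb) and Psmc2 (10.4 kb). Psmd14 encodes the deubiquitinating enzyme of the lid and is the longest member, at 88683 bp. Psmd4 encodes a ubiquitin receptor.

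The 27 other genes of the pathway, which encode inducible core subunits, activators, assembly factors, further cap subunits and regulators of expression, had an end peak at 10 (37.0%, exact interval 19.4 to 57.6), beside the 29.2% of all genes. The strongest was that of Adrm1, the ubiquitin receptor of the base that the 31 genes leave out, with 2081.9 (1060.3 and 1021.6) at 217 bp upstream of the start. Uchl5, a deubiquitinase that binds the product of Adrm1, followed with 689 (310.2 and 379) at 80 bp upstream. Psme3, a nuclear activator, had one of 612 (162 and 450.3) at 238 bp beyond its finish, and Psme1, an activator subunit, had one of 94.96 (21.0 and 74.0) at 909 bp beyond its finish. The assembly factor genes Psmg2, Psmg1, Psmg3 and Pomp had end peaks of 277, 84.4, 73.4 and 69.97. Ube3c, a ubiquitin ligase bound to the proteasome, had one of 122, and Psmb10, an inducible catalytic subunit, had one of 43.5 at 649 bp downstream of the start. The peaks of Adrm1, Uchl5 and Psme3 also lay within 1 kb of an end of Gm29886, Ro60 and Aoc2, in that order. Those of Psme1, Psmg1 and Psmg2 likewise lay at an end of Emc9, Brwd1 and Cep76. Such peaks cannot be assigned to 1 gene alone. None of the 3 regulators (Nfe2l1, Ddi2 and Ngly1) had an end peak.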

How the data were processed

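The data were 1 joint peak list made from 2 CTCF immunoprecipitations of mouse cortical neurons. The inputs carry no values in the list. The submitters' processing notes name MACS2, BWA, SAMtools, Trimmomatic and FastQC, with GRCm38.p6 and mm10 as builds. Settings of the peak caller, and its use of the inputs, were not given in the sources used here. Analysed values were the −log10 p of each replicate column, their sum and the −log10 of the global IDR, all deposited by the authors. The deposited score, a transform of the IDR, was left unused. The sum held in all 33820 rows (tolerance 0.01). Depth per library is unknown and enters the −log10 p, so the ratio of the columns is given only beside that of all end peaks or of the whole list.

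Genes came from RefSeq GRCm38.p6, with 21774 protein-coding genes on assembled chromosomes. Strand was read from the RefSeq promoter table, which held 25 of the 31 members and 17492 protein-coding genes. Counts of genes were set beside the same counts over all protein-coding genes, with no test. Intervals are exact Clopper-Pearson at 95%, also where the count is 0. The members and lists were chosen with earlier results of these data known. Every member was named by rule: those with an end peak with all values, the others with their counts or their nearest summit. Other pathway genes were named where they had an end peak. The CTCF core motif keeps 8 fixed letters of 12 and its looser form 7. The looser form, the starts of the promoter table and classes of gene length were added after the data were seen. The other 6 columns of per-replicate values were not used. On simulated data, 1000 of 1000 planted peaks fell in their class. Versions were pandas 2.3.3, numpy 2.4.6 and scipy 1.17.1 under Python 3.11.15, and matplotlib 3.10.9 for the plots.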

Additional observations from a re-analysis of the deposited data

How the results depend on the processing

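The number of members with an end peak was 7 among peaks above the median joint strength and 22 with windows of 5 kb (14.9% and 51.3% of all protein-coding genes). With each replicate column alone, it ranged from 7 by the first to 8 by the second (21.1% and 13.1% of all genes). Psma1, Psma7 and Psmd3 were lost above the median of either column. Finish peaks rose from 0 to 2 (Psmb3 and Psmd11) when any base of the peak counted and to 8 with windows of 5 kb (11% and 27.5% of all genes). Members with an inside peak numbered 2 among peaks above the median joint strength (22.2% of all genes), 3 by the first column (21.7%) and 2 by the second (22.3%). The median end strength was 177.4 with windows of 5 kb. The looser CTCF form, chosen after seeing the data, raised member windows with a match from 1 to 6 of 27, and all windows with one from 2.43% to 8.61%. Each of these changes follows from fewer peaks, wider windows or fewer fixed letters. Counts of start peaks and of peaks within 10 kb stayed within 1.5 times of the values given under every alternative run. Start peaks ran from 7 to 14 members, while the share of all genes ran from 9.88% to 39.8%. Members with a peak within 10 kb ran from 21 to 28, beside 47.9% to 74.2% of all genes. With 25 of 31 members at the outset, that count could not have risen by 1.5 times. Psmc4, Psmc6, Psmd1, Psmd6 and Psmd11 kept their end peak in all 8 alternatives run on it. Of these, the 5 kb window and the count of any base of the peak could only add end peaks. The columns are not tied to labelled replicates. No paired analysis was possible because the deposited list joins both immunoprecipitations and holds no input values. Depth is unknown, so a gene without a peak may still be bound below the detection limit.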
